A study of Mus musculus with 12 samples.

Results

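The insulin-like growth factor (IGF) system was measured here through 10 genes. They are the ligands *Igf1* and *Igf2*, the receptors *Igf1r* and *Igf2r*, and the binding proteins *Igfbp2*, *Igfbp3*, *Igfbp4*, *Igfbp5*, *Igfbp6* and *Igfbp7*. They were taken by name, as the rows of the count tables whose gene identifiers carry these names in the GENCODE vM21 annotation. The rule uses no measured value, but the set was proposed with earlier results of these data known. All 10 were found among the 55536 named genes, and all 10 had enough counts to be tested in every comparison.

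IGF1 and IGF2 are secreted growth factors that act through IGF1R, a receptor tyrosine kinase close to the insulin receptor, which feeds the PI3K and AKT pathway. IGF2R, also the mannose 6-phosphate receptor, has no kinase. It takes up IGF2 for degradation and sorts acid hydrolases to the lysosome. The IGF-binding proteins hold the ligands outside the cell and are cut by proteases that release them. In the brain, IGF1 supports the growth and survival of neurons and myelination, and choroid plexus and meninges are known sources of IGF2 and IGFBP2.

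Cerebellum and cerebral cortex were taken from WT and from *Snx14*-KO mice at 1 month of age, with 3 mice per genotype, and their RNA was sequenced in 12 libraries, which form 4 groups of 3. SNX14 (Sorting Nexin 14) is a protein of lipid transport and lipid droplet formation, whose loss causes a recessive childhood ataxia with cerebellar degeneration. The *Snx14*-KO mice were homozygous for a frameshifting deletion of a single G in *Snx14*, made by CRISPR/Cas9 in C57BL/6J embryos and backcrossed to C57BL/6J, and they represent this allele alone because carriers of other alleles gave no homozygous pups. The study compared the tissues at an age before Purkinje cells are lost, with the cortex as a tissue that does not degenerate. The labels give both tissues of each numbered mouse and call the cell type mixed, and they do not say how the dissections treated meninges or choroid plexus.

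Gene counts summed to between 16672589 and 19887427 per library. Levels are given as CPM, the read pairs on a gene relative to all gene counts of its library, after edgeR's TMM scaling over the 12 libraries. *Snx14* was 83.3% ± 0.656 lower (SD, n = 3) in *Snx14*-KO cerebella than the WT mean and 85.7% ± 0.738 lower (SD, n = 3) in *Snx14*-KO cortices, which matched the labels. The tissue labels also matched, since 10 of 10 Purkinje cell markers and 10 of 10 granule cell markers were higher in WT cerebellum than in WT cortex and 10 of 10 forebrain neuron markers were lower (edgeR's quasi-likelihood test, called where the Benjamini-Hochberg adjusted p was under 0.05 and the log2 fold change was over 0.5 in size). Some libraries stood apart within their groups. The summed level of 12 choroid plexus epithelium markers was 86.7, 2800 and 7603 CPM in WT cerebella 1, 2 and 3 and 993 to 3278 CPM in *Snx14*-KO cerebella, against 11.1 to 146 CPM in the cortices. The summed level of 15 meningeal fibroblast markers was 148 to 227 CPM in WT cerebella and 339.5 to 362 CPM in *Snx14*-KO cerebella, and among the cortices it was 87.8 to 127 CPM except in *Snx14*-KO cortex 2, at 297 CPM. The 14 microglia and macrophage markers summed to 745.5 CPM in *Snx14*-KO cerebellum 3 and to 257 to 324 CPM in the other cerebella. These are bulk tissues, so fewer cells of a type and less RNA per cell cannot be told apart, and p-values measure the spread between these mice only.

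On GRCm38, the ligands are *Igf1* (ENSMUSG00000020053.18) at chr10:87858265-87937042 (plus strand) and *Igf2* (ENSMUSG00000048583.16) at chr7:142650766-142666816 (minus strand). The receptors are *Igf1r* (ENSMUSG00000005533.10) at chr7:67952827-68233668 (plus strand) and *Igf2r* (ENSMUSG00000023830.14) at chr17:12682406-12769664 (minus strand). *Igfbp2* and *Igfbp5* lie tail to tail on chromosome 1, *Igfbp2* (ENSMUSG00000039323.18) at chr1:72824503-72852474 (plus strand) and *Igfbp5* (ENSMUSG00000026185.8) at chr1:72857932-72874884 (minus strand). The other binding proteins are *Igfbp3* (ENSMUSG00000020427.11) at chr11:7206086-7213923 (minus strand), *Igfbp4* (ENSMUSG00000017493.12) at chr11:99041244-99054392 (plus strand), *Igfbp6* (ENSMUSG00000023046.6) at chr15:102144362-102149511 (plus strand) and *Igfbp7* (ENSMUSG00000036256.13) at chr5:77349240-77408041 (minus strand). Counts were summed over all exons of each gene, from 1112 bases in *Igfbp6* to 16791 bases in *Igf1r*, so isoforms and untranslated parts were not separated.

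The binding proteins share a cysteine-rich domain at the amino end that holds the ligand. Its conserved motif of 8 residues has glycine, cysteine, glycine, cysteine, cysteine and, at the end, another cysteine at its 6 fixed places. At the level of bases, the first and second base of each of those codons were searched, which makes 12 fixed bases among 24. The best in-frame match in the first part of each coding sequence is shown here, because it shows how the 6 binding proteins differ. Capitals mark the 24 bases of the motif, lower case the 9 bases on each side, and the sequences are coding strands of GENCODE vM21 transcripts on GRCm38.
Igfbp2: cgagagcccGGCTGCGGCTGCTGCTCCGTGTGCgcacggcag
Igfbp3: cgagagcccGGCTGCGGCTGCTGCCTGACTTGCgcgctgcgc
Igfbp4: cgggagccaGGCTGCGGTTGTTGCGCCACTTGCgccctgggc
Igfbp5: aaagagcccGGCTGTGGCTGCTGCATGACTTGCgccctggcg
Igfbp7: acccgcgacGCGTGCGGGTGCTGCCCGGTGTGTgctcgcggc
They lie at chr1:72824769-72824810 (plus strand) for *Igfbp2*, chr11:7213557-7213598 (minus) for *Igfbp3*, chr11:99041641-99041682 (plus) for *Igfbp4*, chr1:72873957-72873998 (minus) for *Igfbp5* and chr5:77407817-77407858 (minus) for *Igfbp7*, each within a coding exon. *Igfbp2*, *Igfbp3*, *Igfbp4* and *Igfbp5* matched 12 of 12 fixed bases. *Igfbp7*, whose protein binds IGFs with low affinity, matched 11 of 12, with the difference G2C counted from the first base of the motif. *Igfbp6* reached 8 of 12 in its best window, no more than the second-best windows of the other 5 (8 or 9 of 12), so none is shown for it. All 12 fixed bases were found on the sense strand, in any frame, in transcripts of 55 of 21901 protein-coding genes (0.251%), 4 of them members. A match describes the letters and was not tested for binding.

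In WT tissue, a binding protein had the highest mean level per length of the 10 genes and *Igf1* the lowest, in both tissues. RPKM, CPM per kilobase of exon sequence, was used to compare genes. In WT cerebellum, *Igfbp2* had 41.1 ± 32.6 RPKM (SD, n = 3), *Igf2* 25.9 ± 14.5 and *Igfbp5* 25.5 ± 0.909, and the ranges of these neighbours overlapped. *Igfbp7* (17.3 ± 2.35) and *Igfbp6* (14.7 ± 4.91) came next with overlapping ranges, followed at a distance by *Igfbp3* (5.53 ± 0.587), *Igf2r* (5.48 ± 0.651), *Igfbp4* (3.53 ± 1.01) and *Igf1r* (3.30 ± 0.0574). *Igf1* had 1.17 ± 0.343 RPKM. In WT cortex the order began with *Igfbp6* (36.8 ± 4.65 RPKM, SD, n = 3), *Igfbp5* (29.1 ± 2.14) and *Igfbp4* (19.4 ± 1.99), and the ranges of these 3 did not overlap. *Igfbp2* (16.9 ± 3.67), *Igfbp7* (13.2 ± 2.49) and *Igf2* (7.47 ± 1.5) followed. *Igf2r* (3.79 ± 0.337), *Igf1r* (3.71 ± 0.400) and *Igfbp3* (3.64 ± 0.540) had overlapping ranges, and *Igf1* had 1.22 ± 0.115. *Igf1* lay above 48.6% of the 28874 genes with a count in WT cerebella, and *Igfbp2* above 95.3%.

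**Figure D1:**
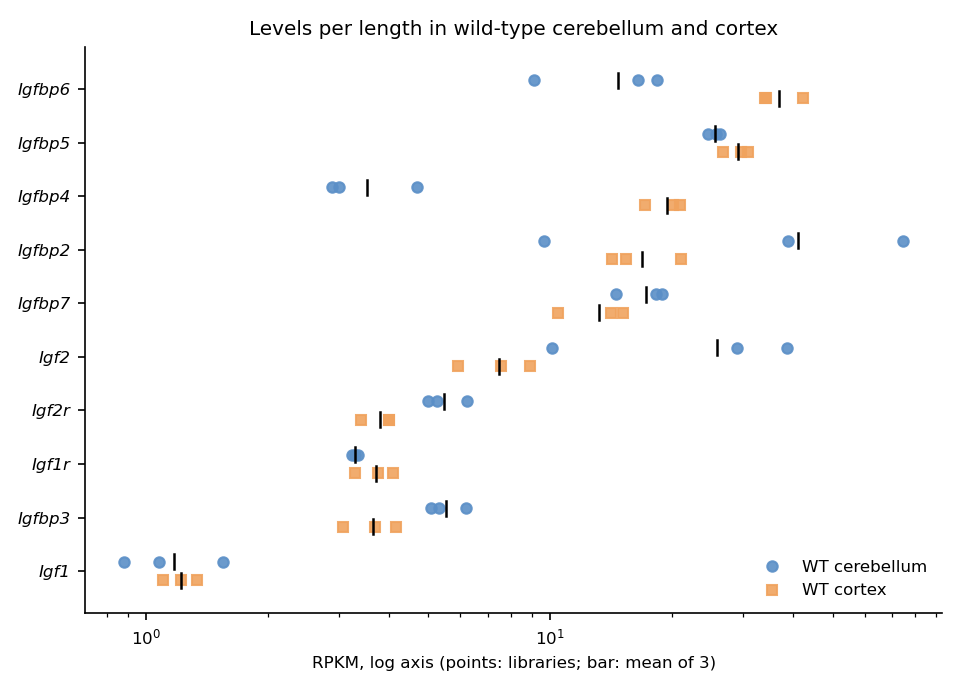
RPKM on a log axis of the 10 genes in WT cerebellum (circles) and WT cortex (squares), with each point a library and each bar the mean of 3. *Igfbp4* and *Igfbp6* lie to the right in cortex, *Igf2* to the right in cerebellum, and *Igfbp2* and *Igf2* are the most widely scattered in cerebellum.

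The 2 WT tissues differed in 5 of the 10 genes. *Igf2*, *Igf2r* and *Igfbp3* were higher in cerebellum, and *Igfbp4* and *Igfbp6* were higher in cortex by the same test and thresholds. This difference is common between these tissues, since 19% of the 18543 genes tested were called higher in cerebellum and 21.4% lower, so that 3 and 2 of 10 are near the background.

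*Igfbp4*, which binds both ligands and is cut by the protease pappalysin, had the largest tissue difference of the 10. It measured 13.3, 20.7 and 12.7 CPM in WT cerebella 1, 2 and 3 and 75.9, 92.4 and 89.2 CPM in WT cortices. Every WT cortex was above every WT cerebellum, in 3 of 3 mice, with a log2 fold change, cerebellum over cortex, of -2.46 (SE 0.165, adjusted p = 4.45e-07). *Igfbp6*, which prefers IGF2, measured 18.3, 20.5 and 10.1 CPM in WT cerebella and 37.9, 38.0 and 46.9 CPM in WT cortices. The groups did not overlap, with a log2 fold change of -1.32 (SE 0.207, adjusted p = 2.89e-04).

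*Igf2* measured 57.8, 166 and 221 CPM in WT cerebella 1, 2 and 3 and 51.0, 33.9 and 43.4 CPM in WT cortices. All WT cerebella were above all WT cortices, although cerebellum 1 lay close to them, and the log2 fold change was 1.80 (SE 0.379, adjusted p = 0.00210). *Igf2r* measured 46.3, 48.8 and 57.8 CPM in WT cerebella and 31.7, 37.1 and 37.1 CPM in WT cortices, a log2 fold change of 0.54 (SE 0.103, adjusted p = 0.00117). It fell short of the fold threshold without WT cerebellum 3, at 0.43, and without WT cortex 1, at 0.45. *Igfbp3*, the main carrier of IGFs in blood, measured 15.9, 19.4 and 16.6 CPM in WT cerebella and 11.5, 13.0 and 9.62 CPM in WT cortices, a log2 fold change of 0.61 (SE 0.141, adjusted p = 0.00372). Without WT cortex 3 its log2 fold change was 0.49, under the threshold.

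The other 5 genes were not called between the WT tissues. *Igf1* and *Igf1r* had log2 fold changes of -0.06 (SE 0.193, adjusted p = 0.821) and -0.17 (SE 0.0836, adjusted p = 0.115). *Igfbp5* had -0.18 (SE 0.0706, adjusted p = 0.0450), below the fold threshold. *Igfbp7* had 0.39 (SE 0.155, adjusted p = 0.0541). *Igfbp2* had 1.29 (SE 0.522, adjusted p = 0.0565), and it had 1.75 without WT cerebellum 1, which passed (adjusted p = 1.61e-04), and 0.52 without WT cerebellum 3 (adjusted p = 0.309). With scaling by library size alone, *Igfbp2* and *Igfbp7* also passed, and the median over all genes in this comparison moved from 0.02 to 0.15.

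**Figure D2:**
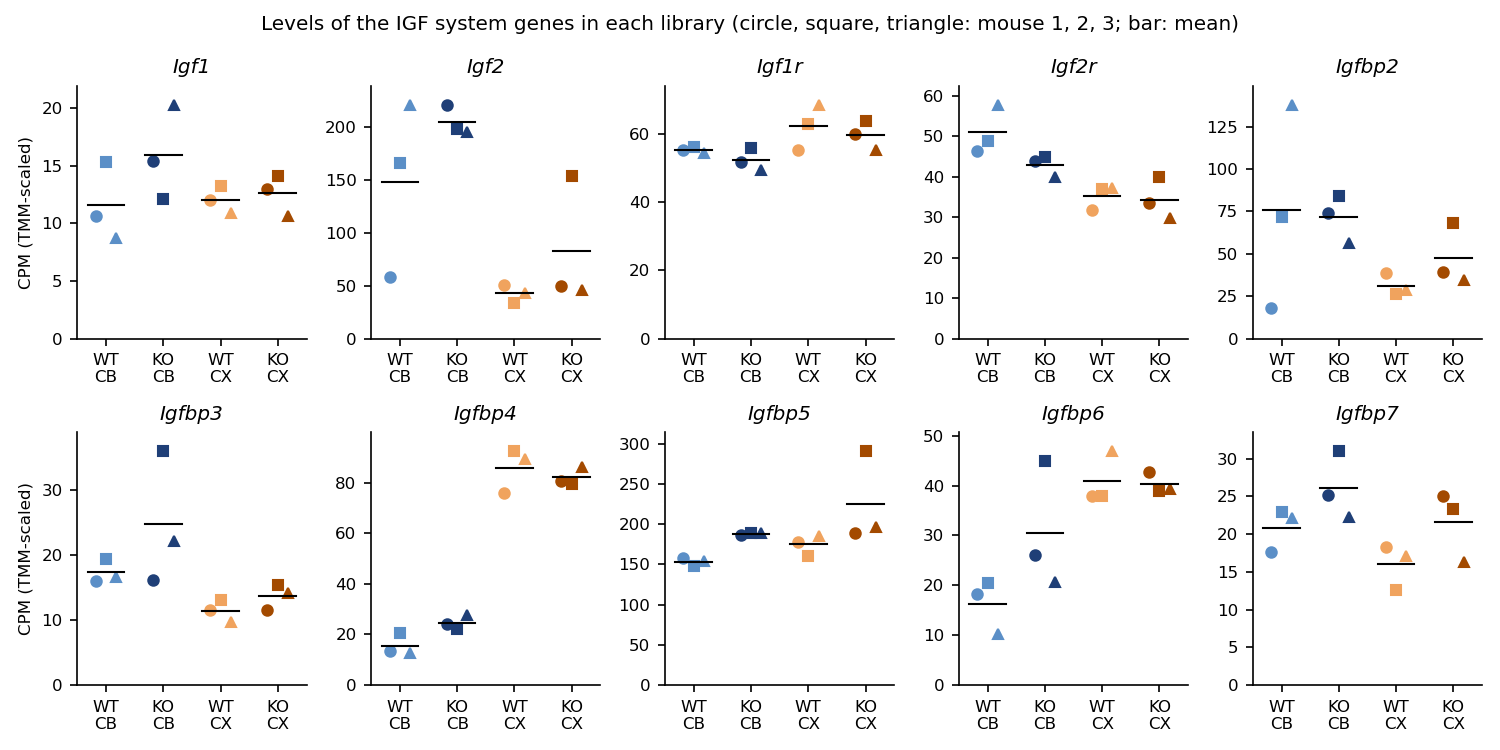
CPM of each of the 10 genes in the 12 libraries, by group (WT or *Snx14*-KO, CB for cerebellum, CX for cortex). Circles, squares and triangles are mice 1, 2 and 3 and the bar is the mean. WT and *Snx14*-KO cerebella do not overlap for *Igfbp4*, *Igfbp5* and *Igfbp6*, with *Snx14*-KO higher (6.22% of all genes). They do not overlap for *Igf2r* either, with *Snx14*-KO lower (6.32% of all genes). The ranges of *Igfbp6* nearly touch, at 20.5 and 20.6 CPM. *Igf2*, *Igfbp2* and *Igfbp5* have a single high *Snx14*-KO cortex, from mouse 2.

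In *Snx14*-KO cerebella, 7 of the 10 genes had a higher and 3 a lower level than in WT cerebella, and none passed edgeR's test with adjustment over all genes. The median log2 fold change of the 10 was 0.41, while that of the 18201 genes tested was -0.00. With each library left out, the median of the 10 ran from 0.24 without *Snx14*-KO cerebellum 2 to 0.49 without WT cerebellum 2. In the same test 0.00549% of genes were called, a single gene, *Snx14*. By DESeq2, the tool used in the study, 0.901% of genes were called and 1 of the 10 was among them, *Igfbp4*. The DESeq2 count of 153 higher and 11 lower genes ran from 29 and 3 without *Snx14*-KO cerebellum 3 to 334 and 24 without *Snx14*-KO cerebellum 2, and it was 83 and 8, 60 and 3, and 62 and 4 without WT cerebellum 1, WT cerebellum 3 and *Snx14*-KO cerebellum 1. At an unadjusted p under 0.05, edgeR placed 4 of 10 higher (*Igfbp4*, *Igfbp5*, *Igfbp6*, *Igfbp7*), where 5.78% of all genes were, and 1 lower (*Igf2r*), where 2.37% were. Levels did not overlap between the groups, with *Snx14*-KO higher, for *Igfbp4*, *Igfbp5* and *Igfbp6*, against 6.22% of all genes, and with *Snx14*-KO lower for *Igf2r*, against 6.32%. Leaving out each library in turn left 3 to 5 genes higher at an unadjusted p under 0.05, with *Igfbp4* and *Igfbp5* among them every time. *Igf2r* was no longer lower at that level without WT cerebellum 2 or 3 or without *Snx14*-KO cerebellum 1 or 3.

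The ligands were scattered. *Igf1* measured 10.7, 15.3 and 8.75 CPM in WT cerebella and 15.4, 12.1 and 20.3 CPM in *Snx14*-KO cerebella. The groups overlapped, and the log2 fold change was 0.48 (SE 0.238, adjusted p = 0.683). Its highest value was in *Snx14*-KO cerebellum 3, the library with the highest microglia and macrophage markers (745.5 CPM), and the log2 fold change was 0.26 without that library, 0.31 without WT cerebellum 3 and 0.73 without WT cerebellum 2. *Igf2* measured 57.8, 166 and 221 CPM in WT and 221, 199 and 196 CPM in *Snx14*-KO cerebella, so that a single WT library, from mouse 1, lay far below the other 5. The log2 fold change was 0.48 (SE 0.369, adjusted p = 0.856), and it was 0.09 without WT cerebellum 1 and 0.88 without WT cerebellum 3. WT cerebellum 1 was also the cerebellum with the lowest choroid plexus markers (86.7 CPM). The part of these cell types in the ligands' levels was not tested.

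Of the 5723 exon bases on which *Igf2* was counted, 62.8% are shared on the same strand with the predicted gene *Gm49394*, and read pairs from that stretch entered both counts. In WT cerebellum 1, *Igf2* had 1040 and *Gm49394* 1029 read pairs, and the counts were as close in the other libraries, so that these rows cannot be told apart. On the other strand, exons of *Igf2* share 1.71% of their bases with *Igf2os* and exons of *Igfbp7* share 7.03% with *Polr2b*, and the counting ignored strand. The other 8 genes shared no exon base with another gene.

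For the receptors, *Igf1r* measured 55.3, 56.3 and 54.4 CPM in WT and 51.8, 56.1 and 49.3 CPM in *Snx14*-KO cerebella, with a log2 fold change of -0.06 (SE 0.0701, adjusted p = 0.916). *Igf2r* measured 46.3, 48.8 and 57.8 CPM in WT and 43.8, 44.9 and 39.9 CPM in *Snx14*-KO cerebella. Each *Snx14*-KO value was below each WT value, and the log2 fold change was -0.24 (SE 0.0987, adjusted p = 0.571). Without WT cerebellum 3 it was -0.14.

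*Igfbp5*, which binds extracellular matrix as well as IGFs, had the smallest p of the 10. It measured 158, 148 and 154 CPM in WT cerebella and 186, 189 and 188 CPM in *Snx14*-KO cerebella. The means were 153 ± 5.46 and 188 ± 1.48 CPM (SD, n = 3), and the lowest *Snx14*-KO value was above the highest WT value. The log2 fold change was 0.31 (SE 0.0614, edgeR adjusted p = 0.178), and it stayed between 0.28 and 0.32 when any library was left out. DESeq2 gave 0.29 (adjusted p = 0.00674), under the fold threshold.

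*Igfbp4* measured 13.3, 20.7 and 12.7 CPM in WT and 24.1, 22.1 and 27.7 CPM in *Snx14*-KO cerebella. The groups did not overlap, with WT cerebellum 2 and *Snx14*-KO cerebellum 2 nearest to each other. The log2 fold change was 0.68 (SE 0.188, edgeR adjusted p = 0.343), and 0.67 by DESeq2 (adjusted p = 0.0379). The DESeq2 call was lost without WT cerebellum 1 or 3 or without *Snx14*-KO cerebellum 1 or 3. *Igfbp6* measured 18.3, 20.5 and 10.1 CPM in WT and 26.1, 44.9 and 20.6 CPM in *Snx14*-KO cerebella. The ranges nearly touched, at 20.5 and 20.6 CPM, and the log2 fold change was 0.92 (SE 0.310, adjusted p = 0.438), or 0.52 without *Snx14*-KO cerebellum 2.

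The 2 promoters are shown because *Igfbp4* and *Igfbp5* are the genes of the system with the smallest p-values in *Snx14*-KO cerebellum. Each is the 250 bases before the RefSeq start site on GRCm38.p6, from the coding strand, with capitals for matches on either strand to the TATA box motif (TATAAA), the GC box motif (GGGCGG) or the E-box motif (CACGTG).
Igfbp4: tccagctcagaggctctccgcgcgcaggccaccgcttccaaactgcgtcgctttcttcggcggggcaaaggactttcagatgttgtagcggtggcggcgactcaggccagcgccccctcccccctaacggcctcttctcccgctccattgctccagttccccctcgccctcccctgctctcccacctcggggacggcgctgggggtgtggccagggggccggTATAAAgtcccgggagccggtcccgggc
Igfbp5: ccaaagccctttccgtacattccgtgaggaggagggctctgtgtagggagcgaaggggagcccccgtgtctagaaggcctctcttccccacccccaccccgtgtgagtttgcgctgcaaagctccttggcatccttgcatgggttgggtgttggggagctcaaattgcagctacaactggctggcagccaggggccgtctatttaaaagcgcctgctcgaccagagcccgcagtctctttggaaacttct
The *Igfbp4* window is chr11:99040994-99041243 on the plus strand and the *Igfbp5* window is chr1:72874866-72875115 on the minus strand. *Igfbp4* holds TATAAA beginning 28 bases before its start site, and *Igfbp5* holds none of the 3 sets of letters in this window. TATAAA was present on either strand in 12.4% of 32851 such RefSeq promoter windows, GGGCGG in 32.7% and CACGTG in 6.02%. Their G and C content was 69.2% for *Igfbp4* and 58.8% for *Igfbp5*.

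*Igfbp2*, a binding protein abundant in choroid plexus and meninges, varied most among the 10 genes in WT cerebella, with a coefficient of variation of 79.4%, and had 19.6% in *Snx14*-KO cerebella, where *Igfbp6* had 41.9%. It measured 17.8, 71.5 and 138 CPM in WT cerebella 1, 2 and 3, in the same order as the choroid plexus markers (86.7, 2800 and 7603 CPM). In *Snx14*-KO cerebella it measured 74.0, 84.4 and 56.6 CPM, again in the order of the choroid plexus sums (2088, 3278 and 993 CPM). The part of choroid plexus in these values was not tested. The log2 fold change was -0.08 (SE 0.532, adjusted p = 0.991), and it ran from -0.55 without WT cerebellum 1 to 0.69 without WT cerebellum 3. *Igfbp3* measured 15.9, 19.4 and 16.6 CPM in WT and 16.1, 35.9 and 22.2 CPM in *Snx14*-KO cerebella, with a log2 fold change of 0.53 (SE 0.252, adjusted p = 0.666), or 0.15 without *Snx14*-KO cerebellum 2. *Igfbp7*, a product of blood vessels, measured 17.6, 22.9 and 22.1 CPM in WT and 25.2, 31.0 and 22.3 CPM in *Snx14*-KO cerebella, with a log2 fold change of 0.34 (SE 0.148, adjusted p = 0.603), or 0.19 without *Snx14*-KO cerebellum 2 and 0.22 without WT cerebellum 1. It was no longer at an unadjusted p under 0.05 without either of these, *Snx14*-KO cerebellum 1 or WT cerebellum 3. Its highest value was in *Snx14*-KO cerebellum 2, where the 12 endothelial markers were also highest (402 CPM, against 291 to 345 CPM in the other cerebella), and the part of endothelium was not tested.

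Levels of other cell type markers also differed between these groups of cerebella. All 15 meningeal fibroblast markers had a higher level in *Snx14*-KO cerebella, 11 of them called by DESeq2 and 0 by edgeR, and their summed levels did not overlap between the genotypes. Mural cell markers summed to 153 to 201.5 CPM in WT and 221.5 to 235 CPM in *Snx14*-KO cerebella. Of these 10 markers, 7 were higher and 3 lower (median log2 fold change 0.17). Among them 3 were at an unadjusted p under 0.05, 2 called by DESeq2 (*Atp13a5*, *Vtn*) and 0 by edgeR. Astrocyte and Bergmann glia markers summed to 7830 to 8590 CPM in WT and 8624 to 9688 CPM in *Snx14*-KO cerebella. Of these 12 markers, 10 were higher and 2 lower (median log2 fold change 0.27). Among them 6 were at an unadjusted p under 0.05 and 0 called by edgeR or DESeq2. All 14 microglia and macrophage markers had a higher level in *Snx14*-KO cerebella (median log2 fold change 0.81), 8 of them at an unadjusted p under 0.05, 1 called by DESeq2 (*Mrc1*) and 0 by edgeR, while their sums overlapped, at 257 to 322 CPM in WT and 296 to 745.5 CPM in *Snx14*-KO cerebella. Granule cell markers were lower for 9 of 10 genes (median log2 fold change -0.28), 5 of them at an unadjusted p under 0.05, 1 called by DESeq2 (*Fat2*) and 0 by edgeR, with overlapping sums of 3584 to 4205 CPM in WT and 2976 to 3725 CPM in *Snx14*-KO cerebella. Choroid plexus markers had a lower level for 12 of 12 genes (median log2 fold change -0.71), 0 of them at an unadjusted p under 0.05. Of 10 forebrain neuron markers, 6 were tested, 3 higher and 3 lower, with *Nrgn* and *Camk2a* higher at an unadjusted p under 0.05 and *Nrgn* (log2 fold change 4.33) called by DESeq2 and not by edgeR, and their sums overlapped, at 462 to 572 CPM in WT and 511 to 624 CPM in *Snx14*-KO cerebella. Endothelial markers were higher for 9 of 12 genes (median log2 fold change 0.11), 2 of them at an unadjusted p under 0.05. Purkinje cell markers were lower for 9 of 10 genes (median -0.11), with 1, *Itpr1*, at that level. Oligodendrocyte markers were lower for 9 of 10 genes (median -0.14), with 0 at that level. No endothelial, Purkinje cell or oligodendrocyte marker was called by edgeR or DESeq2. The part of these cell types in the levels of the 10 genes was not tested.

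**Figure D3:**
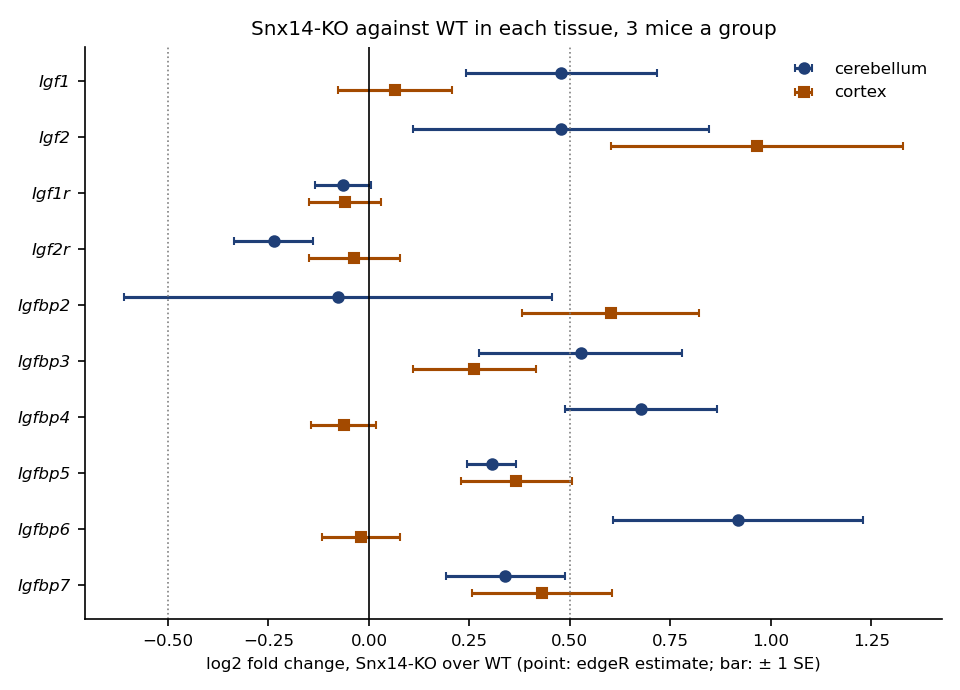
Log2 fold change of *Snx14*-KO over WT for each gene (edgeR estimate, bar ± 1 SE) in cerebellum (circles) and cortex (squares), 3 mice a group, with dotted lines at the fold threshold. *Igfbp4* and *Igfbp6* are apart in the 2 tissues, at 0.68 and 0.92 in cerebellum and -0.06 and -0.02 in cortex, while *Igfbp5* and *Igfbp7* lie at similar positive values in both. Neither difference between tissues was called (edgeR interaction test, adjusted p = 0.459 and 0.732). In cortex, *Igfbp5* was at 0.14 without *Snx14*-KO cortex 2 and *Igfbp7* at 0.29 without WT cortex 2.

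In *Snx14*-KO cortices, 6 of the 10 genes had a higher and 4 a lower level than in WT, and the median of the 10 log2 fold changes was 0.16. With each library left out, that median ran from 0.07 without *Snx14*-KO cortex 2 to 0.21 without WT cortex 2. None of the 10 was called by edgeR, where 0.00548% of 18255 genes were, or by DESeq2, where 0.0493% were. At an unadjusted p under 0.05, 4 were higher (*Igf2*, *Igfbp2*, *Igfbp5*, *Igfbp7*), where 2.24% of all genes were, and 0 were lower, where 2.26% were. Only *Igfbp5* did not overlap between the groups with *Snx14*-KO higher, against 4.57% of genes, and none did with *Snx14*-KO lower, against 4.67%. The 4 genes at an unadjusted p under 0.05 became 0 without *Snx14*-KO cortex 2, and also 0 without WT cortex 2.

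*Snx14*-KO cortex 2 was the highest cortex for *Igf2*, *Igfbp2*, *Igfbp5* and the meningeal markers alike. *Igf2* measured 51.0, 33.9 and 43.4 CPM in WT and 49.9, 153 and 46.4 CPM in *Snx14*-KO cortices. The log2 fold change of 0.97 (SE 0.364, adjusted p = 0.996) was 0.17 without that library. *Igfbp2* measured 38.9, 26.3 and 28.4 CPM in WT and 39.2, 68.0 and 34.6 CPM in *Snx14*-KO cortices. Its log2 fold change of 0.60 (SE 0.221, adjusted p = 0.996) was 0.24 without it. *Igfbp5* measured 178, 161 and 186 CPM in WT and 188, 291 and 197 CPM in *Snx14*-KO cortices. Its log2 fold change of 0.37 (SE 0.138, adjusted p = 0.996) was 0.14 without it. In that library the meningeal markers summed to 297 CPM, against 112 and 119 CPM in the other *Snx14*-KO cortices, and the choroid plexus markers to 11.1 CPM, the lowest of the 12 libraries. Over the groups, 15 of 15 meningeal markers had a higher level in *Snx14*-KO cortices (median log2 fold change 0.66), 8 of them at an unadjusted p under 0.05 and 0 called by edgeR or DESeq2. In *Snx14*-KO cortex 2 the microglia and macrophage markers, at 706 CPM, were the highest of the cortices, where the others had 568 to 642 CPM. The 10 oligodendrocyte markers were also lowest of the 12 libraries in *Snx14*-KO cortex 2, at 5561 CPM against 7248 to 8130 CPM in the other cortices. In all, 10 of 10 oligodendrocyte markers had a lower level in *Snx14*-KO cortices (median log2 fold change -0.27), 7 of them at an unadjusted p under 0.05 and 0 called by edgeR or DESeq2. The part of these cell types in the 3 genes was not tested.

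*Igfbp7* measured 18.3, 12.6 and 17.1 CPM in WT and 25.1, 23.3 and 16.3 CPM in *Snx14*-KO cortices, with overlapping groups and a log2 fold change of 0.43 (SE 0.174, adjusted p = 0.996), or 0.29 without WT cortex 2. Endothelial markers summed to 255 to 304 CPM in WT and 288 to 336.5 CPM in *Snx14*-KO cortices, with 11 of 12 at a higher level and 3 of them at an unadjusted p under 0.05. Mural cell markers summed to 125 to 172.2 CPM in WT and 172.5 to 185.5 CPM in *Snx14*-KO cortices, which did not overlap, with 9 of 10 at a higher level and 2 at an unadjusted p under 0.05. Neither list had a gene called by edgeR or DESeq2, and the part of these cell types in *Igfbp7* was not tested. *Igfbp4* measured 75.9, 92.4 and 89.2 CPM in WT and 80.8, 79.6 and 86.2 CPM in *Snx14*-KO cortices (log2 fold change -0.06, SE 0.0811, adjusted p = 0.996). *Igfbp6* measured 37.9, 38.0 and 46.9 CPM in WT and 42.8, 39.0 and 39.2 CPM in *Snx14*-KO cortices (log2 fold change -0.02, SE 0.0967, adjusted p = 0.996). For both, the *Snx14*-KO values lay within the WT range. *Igf1*, *Igf1r*, *Igf2r* and *Igfbp3* had log2 fold changes of 0.06, -0.06, -0.04 and 0.26, with SEs from 0.0899 to 0.152.

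**Figure D4:**
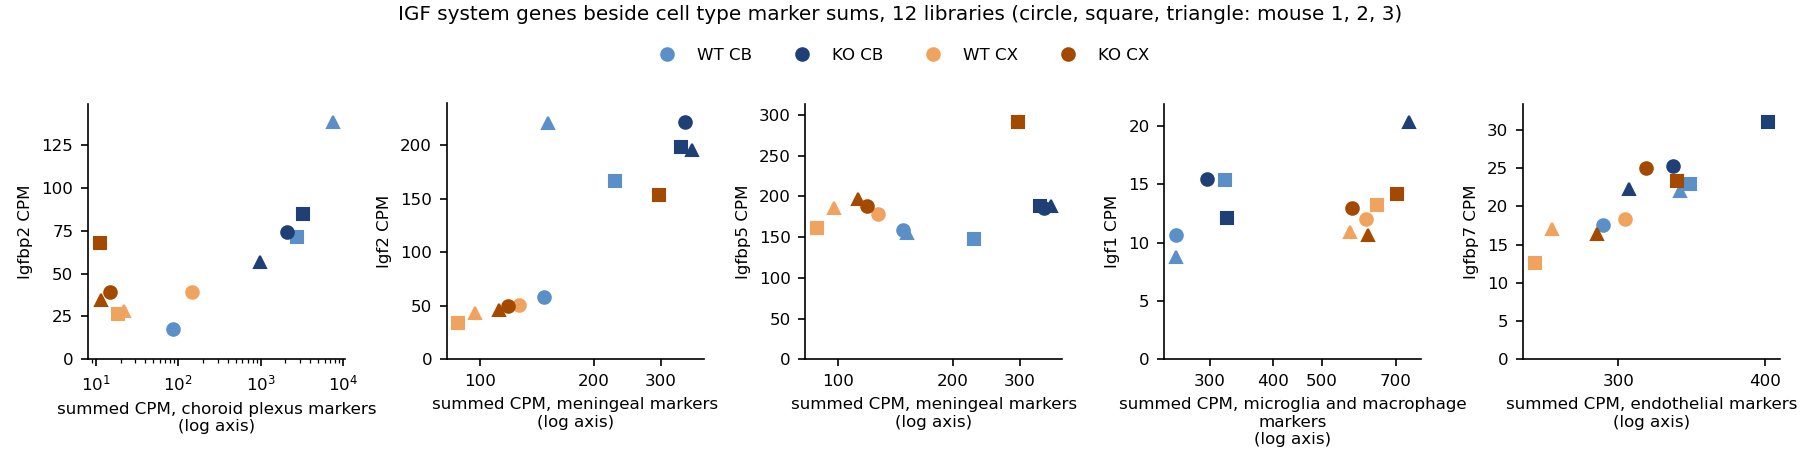
CPM of 5 genes against the summed CPM of cell type markers on a log axis in the 12 libraries, coloured by group. *Igfbp2* is highest in WT cerebellum 3, which has the most choroid plexus markers (7603 CPM), *Igf2* and *Igfbp5* are highest among cortices in *Snx14*-KO cortex 2 (meningeal markers 297 CPM), and *Igf1* is highest in *Snx14*-KO cerebellum 3 (microglia and macrophage markers 745.5 CPM). The pairs were chosen after the values were seen.

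The difference between tissues in the *Snx14*-KO effect was tested as an interaction over the 12 libraries. None of 10 genes was called, where edgeR called 0% and DESeq2 0.186% of 19380 genes at an adjusted p under 0.05. Without *Snx14*-KO cerebellum 2, edgeR called a larger log2 fold change in cerebellum for 251 genes and a smaller one for 6. At an unadjusted p under 0.05, edgeR placed *Igfbp4* and *Igfbp6*, 2 of 10, against 5.68% of all genes. For *Igfbp4* the log2 fold change was 0.73 larger in cerebellum (SE 0.207, adjusted p = 0.459 by edgeR), and for *Igfbp6* it was 0.92 larger (SE 0.358, adjusted p = 0.732 by edgeR), or 0.54 without *Snx14*-KO cerebellum 2. With *Snx14*-KO the cerebellum stayed below the cortex for *Igfbp4*, at 24.6 ± 2.84 against 82.2 ± 3.52 CPM (SD, n = 3). For *Igfbp6* the means were 30.5 ± 12.8 CPM in *Snx14*-KO cerebella and 40.4 ± 2.14 CPM in *Snx14*-KO cortices (SD, n = 3). These groups overlapped through *Snx14*-KO cerebellum 2 alone, at 44.9 CPM, where the WT tissues had been apart. *Snx14*-KO cerebella 1 and 3, at 26.1 and 20.6 CPM, lay below every *Snx14*-KO cortex (39.0 to 42.8 CPM). Leaving out each library in turn kept *Igfbp4* at an unadjusted p under 0.05 every time and lost *Igfbp6* without WT cerebellum 3, *Snx14*-KO cerebellum 2 or WT cortex 3.

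Genes around the ligands and receptors were read from 6 lists with 58 genes. None was called by edgeR or DESeq2 in *Snx14*-KO cerebellum, in *Snx14*-KO cortex or in the difference between tissues. Among the proteases that cut binding proteins and their inhibitors, 9 of 10 genes were tested in cerebellum, 7 higher and 2 lower with *Snx14*-KO (median log2 fold change 0.20). *Pappa*, the protease of IGFBP4, had the smallest p among them, with 5.33 ± 0.770 CPM in WT and 2.82 ± 0.260 CPM in *Snx14*-KO cerebella (SD, n = 3), a log2 fold change of -0.90 (SE 0.197, adjusted p = 0.208 by edgeR). *Stc1*, an inhibitor of that protease and named here after its values were seen, had 0.241 ± 0.128 and 1.35 ± 0.781 CPM (SD, n = 3), a log2 fold change of 2.47 (SE 0.601, adjusted p = 0.257 by edgeR). *Stc1* counts are few in cerebellum. In cortex 8 of these genes were tested, and *Stc2*, another inhibitor of the protease, had the smallest p (log2 fold change 0.91, SE 0.272, adjusted p = 0.996).

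In the list of other ligands and binding proteins, *Ins1*, *Ins2*, *Igfbp1*, *Igfals* and *Esm1* had too few counts to test in either tissue. *Htra3*, a secreted protease with an IGF-binding-protein domain, had the smallest p in both tissues, with log2 fold changes of 0.47 (SE 0.126, adjusted p = 0.321) in cerebellum and 0.60 (SE 0.288, adjusted p = 0.996) in cortex. In the insulin receptor family and its adaptors, *Shc1*, an adaptor of receptor tyrosine kinases, had the smallest p in both tissues, at 0.35 (SE 0.131, adjusted p = 0.497) and 0.44 (SE 0.195, adjusted p = 0.996). The insulin receptor *Insr* had -0.03 (SE 0.0820) in cerebellum and -0.01 (SE 0.0878) in cortex. The 16 genes of the PI3K, AKT and FOXO arm had medians of -0.00 in cerebellum and 0.02 in cortex, and single genes ran from -0.10 to 0.22 in cerebellum and from -0.09 to 0.13 in cortex. *Foxo1*, a transcription factor held out of the nucleus by AKT, had the smallest p there in cerebellum (0.22, SE 0.151), and *Rps6kb1*, the ribosomal S6 kinase, in cortex (0.13, SE 0.0782).

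Among the IGF2 mRNA-binding proteins and imprinted neighbours, *H19*, the imprinted RNA next to *Igf2*, had the smallest p in cerebellum (log2 fold change 1.2, SE 0.564, adjusted p = 0.653) and *Igf2bp3* in cortex (-0.33, SE 0.176, adjusted p = 0.996). In the growth hormone axis these were *Stat5b* (-0.09, SE 0.0830) and *Stat5a* (0.55, SE 0.262), transcription factors that carry the growth hormone signal to *Igf1*. In the difference between tissues, the genes with the smallest p in the 6 lists were *Igfbpl1*, *Stc1*, *Irs4*, *Foxo3*, *Airn* and *Stat5a*, with adjusted p from 0.407 to 1.00.

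Between the WT tissues, more genes of these lists were called. The binding protein proteases and inhibitors had 4 of 9 called higher in cerebellum and 2 lower, among them *Pappa* (log2 fold change 4.26, SE 0.318, adjusted p = 1.05e-06) with *Adamts1*, *Mmp14* and *Timp3*, against *Pappa2* (-3.69, SE 0.387, adjusted p = 1.50e-05) and *Stc1* (-3.90, SE 0.348, adjusted p = 4.20e-06). In the growth hormone axis *Socs2*, *Stat5a* and *Stat5b* were higher in cerebellum, 3 of 5. In the PI3K, AKT and FOXO arm *Pik3r2* (-0.93, SE 0.0661, adjusted p = 7.02e-07) and *Pdpk1* (-0.68, SE 0.0613, adjusted p = 4.55e-06) were lower, and the count over that list is not reported here. *Irs1* and *Insrr* were higher in cerebellum, 2 of 9, as were *Airn*, *Cdkn1c* and *H19* among the imprinted neighbours, where *Igf2bp2* was lower. *Htra3* was higher and *Igfbpl1* lower. These shares stand beside the background of 19% higher and 21.4% lower.

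The genes most like each member were found by Pearson's r of log2(CPM + 1) over the 12 libraries after the mean of each tissue was removed, among 17048 genes. The 12 libraries come from 6 mice and share depth and dissection, so these are descriptions. *Igfbp7* was most like *Cdh5* (r = 0.902) and *Eng* (r = 0.872), both endothelial genes, and *Foxq1* (r = 0.867). *Igf2* was most like *Gm49394* (r = 1), which shares its reads, then *Bmp6* (r = 0.976) and *Ctsc* (r = 0.951). Among the genes most like *Igfbp2* were *Lbp* (r = 0.972) and *Sema3b* (r = 0.965). *Igfbp5* was most like *Ggnbp1* (r = 0.970), *Erbb2* (r = 0.951) and *Gm11946* (r = 0.951). *Igfbp4* was most like *Cav2* (r = 0.945), *Htr2a* (r = 0.939) and *Shisa7* (r = 0.937), and *Igfbp3* was most like *Ube2a* (r = 0.954), *Alb* (r = 0.934) and *Ulk4* (r = 0.912). For *Igf1* the 3 genes were *Fxyd7*, *Jak3* and *Pcdh17* (r from 0.896 to 0.929), for *Igf1r* they were *Gm4419*, *Sertad3* and *Tnfrsf12a* (0.891 to 0.920), for *Igf2r* *Pard6b*, *Wdr44* and *Tmtc4* (0.892 to 0.926), and for *Igfbp6* *Epop*, *Slc40a1* and *4930404A12Rik* (0.892 to 0.927).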

How the data were processed

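The 10 genes and the gene lists were chosen with earlier results of these data known. RNA of 12 libraries, 3 for each tissue and genotype, was sequenced as read pairs. The authors trimmed the reads, mapped them with STAR to the mouse genome (GRCm38, GENCODE vM21) and deposited raw counts of read pairs per gene from featureCounts (Subread 2.0.1 in the submitters' processing notes), without use of strand and with a pair that overlaps several genes counted for each. The labels name a kit that does not mark strand and the methods call the libraries strand-specific. Among the 10 genes this bears only on the overlaps of *Igf2* with *Igf2os* and of *Igfbp7* with *Polr2b*. Rows that are no gene (26345 of 81881, at most 0.0632% of counts) were left out.

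Genotypes within a tissue, and WT tissues, were compared with edgeR 4.0.16 (filterByExpr, TMM, two-sided quasi-likelihood F test, R 4.3.3) on the libraries of that comparison, and the difference between tissues with an interaction over all 12. *P* values were adjusted by Benjamini-Hochberg over all genes tested. SE is the absolute log2 fold change divided by the square root of F. DESeq2 1.42.0 was the alternative. RPKM used the exon bases of GENCODE vM21. All members were named; in the pathway lists, every gene called by either tool, or the gene with the smallest p where none was; and for likeness 3 genes per member, at a mean of at least 1 CPM. Members had at least 163 read pairs in every library. No 2 libraries were the same (chi-square per gene at least 6.42). The labels name the same mice for both tissues, and their deviations from group means correlated at 0.0271 to 0.373. Other alternatives were size factors by RLE, library size alone, no filter on low counts, a replicate block, a fit over all 12 libraries and leaving out each library. The block was the replicate number in the genotype fits and the mouse in the WT tissue and interaction fits. The main WT tissue and interaction fits treated both tissues of a mouse as independent. RefSeq promoter windows and GENCODE transcripts gave the sequences. A few single-gene results are not reported here.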

Additional observations from a re-analysis of the deposited data

How the results depend on the processing

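In the comparison of genotypes, 0 of 10 genes were called in either tissue or in the difference between tissues under every other size factor, the replicate block and each library left out. Calls appeared with DESeq2 in cerebellum (1, *Igfbp4*) and without a filter on low counts, with 2 in cerebellum (*Igfbp4*, *Igfbp6*), 2 in cortex (*Igf2*, *Igfbp2*) and 4 in the difference (*Igf2*, *Igfbp2*, *Igfbp4*, *Igfbp6*), and the cause was not tested. When each library was left out, added after seeing the data, the DESeq2 count in cerebellum ran from 0 to 1. Between WT tissues, 4 to 6 genes were called with each library left out, 5 with the replicate block and 7 with library size alone, and *Igf1* turned from -0.06 to 0.0658 with library size alone. Of all 18543 genes tested there, 3529 were called higher and 3967 lower in the main fit. These were 3503 and 3946 with the replicate block and 4491 and 3415 with library size alone. With each library left out, 3330 to 3622 genes were called higher and 3883 to 4069 lower. *Igfbp2* in cerebellum turned from -0.08 to 0.28 with the replicate block.

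Leaving out libraries gave a range across 0 for *Igfbp2* in cerebellum (-0.55 to 0.69), for *Igf1* (-0.0308 to 0.172), *Igf1r* (-0.139 to 0.0143), *Igf2r* (-0.160 to 0.0582) and *Igfbp6* (-0.0722 to 0.0871) in cortex, and for *Igf1* between WT tissues (-0.31 to 0.11). In the difference it did so for *Igf2* (-0.88 to 0.30), *Igf1r* (-0.0951 to 0.0738), *Igfbp2* (-1.15 to 0.0812), *Igfbp3* (-0.12 to 0.48), *Igfbp5* (-0.19 to 0.15) and *Igfbp7* (-0.270 to 0.0408). Where an arm fell to 2 libraries, the test kept the spread of the others.

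WT and *Snx14*-KO mice share only a number, since same-numbered libraries correlated at -0.0274 to 0.0831 in cerebellum and -0.104 to 0.0948 in cortex. The block, by number in the genotype fits and by mouse in the WT tissue and interaction fits, changed no call of the 10 genes. Over all genes, counts higher and lower in cerebellum were 0 and 1 in edgeR, 153 and 11 in DESeq2, 329 and 18 without the filter, 43 and 2 in a fit over all 12 libraries and 244 and 10 without *Snx14*-KO cerebellum 2. In cortex they were 0 and 1 in edgeR, 3 and 6 in DESeq2 and 85 and 64 without the filter. In the difference between tissues they were 0 and 0 in edgeR, 35 and 1 in DESeq2, 373 and 45 without the filter and 251 and 6 without *Snx14*-KO cerebellum 2. With 3 mice a group, *Igf1*, at 163 to 375 read pairs a library, is the least deeply counted member.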
